A study of Mus musculus with 6 samples.

Results

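Pluripotency transcription factors are the DNA-binding proteins that keep embryonic stem cells able to form every tissue of the embryo. The mRNA levels of 10 of them, Pou5f1, Sox2, Nanog, Sall4, Esrrb, Klf2, Klf4, Klf5, Tbx3 and Tfcp2l1, were examined in mouse embryonic stem cells (mESCs) with and without huntingtin (Htt). The genes were taken by their symbols from a table of 23412 genes, and all 10 were among the 14276 genes tested. The RNA-seq experiment compared undifferentiated R1 mESCs (wild type, the parental line, 129Sv strain) with HN mESCs (Htt-null, the same strain), a single line in which the Htt promoter and exon 1 were deleted. Each line had 3 libraries, 1 from each of 3 batches collected on different dates, and libraries of the 2 lines that carry the same number share a date. Both lines were grown without feeder cells on gelatin in medium with fetal bovine serum, leukemia inhibitory factor (LIF) and inhibitors of the FGF and VEGF receptors, of MEK and of GSK3. Since HN is a single line and R1 its parent, the deletion and other differences between these lines cannot be told apart.

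Pou5f1 (Oct4) and Sox2 bind DNA side by side on composite sites, and together with Nanog and Sall4 they hold up one another's transcription and that of many stem cell genes. Around them stands a set of factors, among them Esrrb, Tbx3, Tfcp2l1 and the Krüppel-like factors Klf2, Klf4 and Klf5, that link the core to outside signals: LIF acts through Stat3 on Klf4 and Tfcp2l1, and inhibition of GSK3 relieves repression by Tcf7l1 of genes such as Esrrb, Nanog, Klf2 and Tfcp2l1. Several of these factors can replace each other in culture, and their levels drop when cells leave the naive state.

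In HN mESCs, Pou5f1 and Sox2 mRNA were at the levels of R1 mESCs on average. The fold change was 1.21 for both Nanog and Sall4, and the 6 factors of the outer set lay between 1.24 (Klf2) and 1.48 (Tfcp2l1). When libraries of the same date were compared, 6 of the 10 genes passed the test, and all of these were higher in HN mESCs (5.46% of all genes tested were higher, and 9.48% passed in either direction): Nanog, Esrrb, Klf4, Klf5, Tbx3 and Tfcp2l1. Without regard to date, 0 of the 10 genes passed. The collection date also moved these genes, and all 10 lay lower on the third date than on the mean of the earlier ones in both lines.

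Levels are given as normalized counts, which are read counts divided by a size factor of the library. Each log2 fold change is the mean of log2(normalized count + 1) in HN minus that in R1, a scale on which low counts change too little, and was tested with limma across all 14276 genes. A gene passed when its Benjamini-Hochberg (BH) adjusted p-value was under 0.05. The unpaired comparison ignores the dates, and the same-date comparison adds the date (replicate number) as a block. The libraries held from 1640391 to 3866717 reads on genes, with the second date the deepest in both lines. Htt itself, whose promoter and exon 1 were deleted in HN mESCs, averaged 229 ± 29.0 normalized counts over the R1 libraries. Over those of HN it averaged 43.5 ± 22.0 (SD, n = 3 each). The sum over the 10 markers of embryonic stem cells ranged from 7823 to 11469 in R1 and from 7582 to 9957 in HN, and 0 of these markers had no reads. With dates matched 2 of them rose (Fgf4 and Dppa5a) and 4 fell (Zfp42, Utf1, Tcl1 and Fbxo15), where 9.48% of all genes passed in either direction. All of these markers except Alpl are also in the network lists described below. The replicates are batches of 1 line each. Unpaired p-values measure the spread between these batches, and same-date p-values the spread of the line difference from date to date. In both, limma draws the variance of each gene toward a trend fitted over all genes, so that the p-values rest partly on other genes.

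The sequences just before the transcription start are shown for the 3 genes whose libraries did not overlap between the lines (Nanog, Klf4 and Tfcp2l1) and, for comparison, for Sox2, whose mean did not move. They are the 250 bases ahead of the start annotated by RefSeq on build GRCm38.p6, read 5′ to 3′ along the strand of the gene, and 7 of the 10 genes had such a window. The windows are chr6:122707239-122707488 (plus strand) for Nanog, chr1:118627695-118627944 (plus) for Tfcp2l1, chr4:55532476-55532725 (minus) for Klf4 and chr3:34649745-34649994 (plus) for Sox2. Capitals mark matches to binding motifs of the factors themselves.
Nanog: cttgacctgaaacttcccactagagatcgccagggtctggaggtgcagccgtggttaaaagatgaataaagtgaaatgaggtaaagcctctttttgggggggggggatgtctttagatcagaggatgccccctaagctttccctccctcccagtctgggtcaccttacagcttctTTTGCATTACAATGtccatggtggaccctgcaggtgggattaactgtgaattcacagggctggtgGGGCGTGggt
Tfcp2l1: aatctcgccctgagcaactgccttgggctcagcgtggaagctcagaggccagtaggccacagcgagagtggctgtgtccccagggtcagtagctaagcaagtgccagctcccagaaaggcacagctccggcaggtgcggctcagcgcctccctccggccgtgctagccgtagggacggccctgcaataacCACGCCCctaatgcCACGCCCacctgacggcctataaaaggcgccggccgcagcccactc
Klf4: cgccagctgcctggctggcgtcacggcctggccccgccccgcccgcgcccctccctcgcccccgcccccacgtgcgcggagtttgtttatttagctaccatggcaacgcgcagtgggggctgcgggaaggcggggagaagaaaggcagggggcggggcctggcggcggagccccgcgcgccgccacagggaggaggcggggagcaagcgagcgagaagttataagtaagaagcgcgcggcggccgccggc
Sox2: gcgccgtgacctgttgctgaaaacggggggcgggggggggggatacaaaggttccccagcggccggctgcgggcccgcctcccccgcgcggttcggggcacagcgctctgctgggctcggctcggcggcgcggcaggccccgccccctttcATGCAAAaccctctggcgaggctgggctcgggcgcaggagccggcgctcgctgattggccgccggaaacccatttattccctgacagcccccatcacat
The Nanog window holds the composite Oct-Sox element TTTGCATTACAATG from position -75 to -62 before the start, where an octamer motif (TTTGCAT, the reverse complement of ATGCAAA) stands beside a Sox motif (ACAATG). A Klf motif, GGGCGTG, lies from -10 to -4. The Tfcp2l1 window holds 2 Klf motifs on the minus strand, as CACGCCC from -60 to -54 and from -46 to -40, and a TATA motif (TATAAA, left in lower case) from -28 to -23. The Sox2 window holds an octamer motif, ATGCAAA, from -99 to -93. These positions count from the RefSeq start, which lies upstream of the start of Sox2 in GENCODE M21 (34650405). The Klf4 window holds 0 matches to the 9 motifs searched, which says only that these letters are not in these 250 bases.

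The motifs were searched on both strands of 32851 windows of the same length. The octamer motif ATGCAAA was found in 4.12% of them, the Sox motif ACAATG in 10.7%, the Klf motif GGGNGTG in 26.1%, the Esrrb motif AAGGTCA in 4.08%, the Tfcp2l1 motif (a repeated CCNG with 6 bases between) in 24.9%, the Tbx motif AGGTGTG in 5.10%, the Stat motif TTCCNGGAA in 0.913% and TATAAA in 12.4%. The full Oct-Sox element, which contains both the octamer and the Sox motif with any 1 base between, was found in 2 windows (0.00609%), both of which belong to Nanog. The 2 windows overlap and hold the same site. These matches describe the sequence, and binding was not measured.

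**Figure D1:**
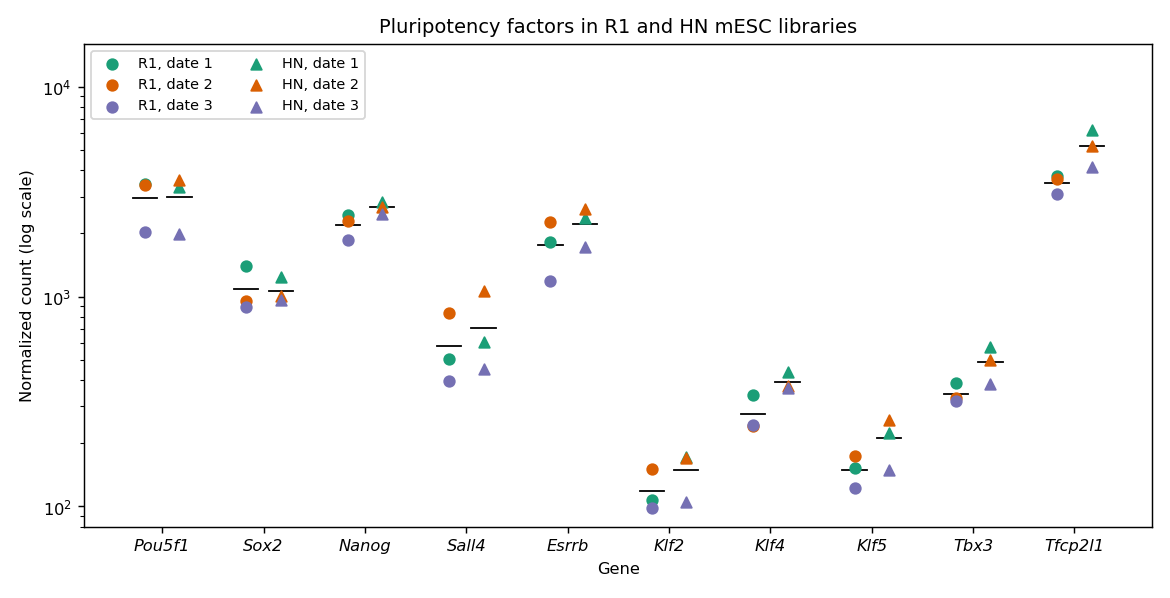
Normalized count (y axis, log scale) of the 10 factors in each library, with circles for R1 and triangles for HN mESCs, colours for the collection date and a bar at the mean of each line (n = 3). The HN triangles lie above all R1 circles for Nanog, Klf4 and Tfcp2l1, and the third date is the lowest of its line for every gene except Klf4 in R1.

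Pou5f1, the POU-domain factor without which no pluripotent cells form, lies on chromosome 17 (GRCm38, 35506018 to 35510772, plus strand, 5 exons in its longest transcript). R1 replicates 1, 2 and 3 had 3460, 3405 and 2035 normalized counts, and HN replicates 1, 2 and 3 had 3347, 3597 and 1994. The lines overlapped, and within each line the third date stood well below the other two. The means were 2967 ± 807 in R1 and 2979 ± 862 in HN (SD, n = 3), and the log2 fold change was 0.00 with a standard error (SE) of 0.27 (BH adjusted p = 1 by limma). The 95% interval ran from -0.60 to 0.60 in the unpaired comparison and from -0.17 to 0.17 in the same-date comparison (adjusted p = 0.999), so that with dates matched a difference of more than 1.13-fold in either direction lay outside it. HN was higher than R1 on 1 of 3 dates.

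Sox2, the partner of Pou5f1 on composite sites, is a gene of 1 exon on chromosome 3 (34650405 to 34652461, plus strand). R1 replicates had normalized counts of 1398, 956 and 894, and HN replicates had 1235, 1003 and 960. The first date was the highest in both lines and the ranges overlapped. The difference between the lines was -0.00 on the log2 scale (SE 0.21, adjusted p = 1), with a 95% interval from -0.47 to 0.46 unpaired and from -0.19 to 0.18 with dates matched (adjusted p = 0.995, limma). For Pou5f1 and Sox2 the sign of the difference had no stable direction: with quantile normalization Pou5f1 stood at -0.14, and with median centring Sox2 stood at 0.01.

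Nanog, a homeodomain factor whose level varies between stem cells and which holds them in self-renewal, lies on chromosome 6 (122707489 to 122714633, plus strand, 4 exons in its longest transcript). Its normalized counts were 2440, 2303 and 1864 in R1 and 2832, 2669 and 2482 in HN replicates 1, 2 and 3. All 3 HN libraries lay above all 3 R1 libraries, and the lowest HN value exceeded the highest R1 value only slightly. The means were 2202 ± 301 and 2661 ± 175 (SD, n = 3), a log2 fold change of 0.28 (SE 0.19, adjusted p = 1 by limma without the date). With dates matched, Nanog rose by the same 0.28 (SE 0.09, 95% interval 0.11 to 0.45, adjusted p = 0.0305). An exact permutation test over the libraries gave p = 0.1, the smallest that 3 against 3 allows. The same-date call was lost without the second date (0.31, adjusted p = 0.338), without the third (0.21, adjusted p = 0.052) and with TMM scaling (adjusted p = 0.0577).

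Sall4, a zinc finger protein that activates Pou5f1, lies on chromosome 2 (168748332 to 168767943, minus strand). It had normalized counts of 505, 837 and 396 in R1 and 611, 1068 and 452 in HN. The spread between dates was the largest of the 10 genes in both lines, with coefficients of variation of 39.6% in R1 and 45.1% in HN, and the second date was the highest in each line. On each date HN was above R1, by 1.21, 1.28 and 1.14 times. The log2 fold change of 0.27 (SE 0.33) did not pass in the unpaired comparison (adjusted p = 1) or the same-date comparison (SE 0.09, 95% interval 0.08 to 0.46, adjusted p = 0.0643). It passed with dates matched in edgeR (adjusted p = 0.0401), with median centring (adjusted p = 0.0469) and without the third date (adjusted p = 0.0198). In the unpaired fit without HN replicate 2 the value turned to -0.07.

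Esrrb, an orphan nuclear receptor that can stand in for Nanog, spans 160512 bp of chromosome 12 (86361117 to 86521628, plus strand). Its normalized counts were 1827, 2257 and 1183 in R1 and 2359, 2602 and 1732 in HN replicates 1, 2 and 3. The lines overlapped, because R1 of the second date stood above HN of the third, but on each date HN was higher, by 1.29, 1.15 and 1.46 times. Esrrb rose by 0.37 on the log2 scale in the same-date comparison (SE 0.09, 95% interval 0.20 to 0.55, limma adjusted p = 0.00389). The same difference had an SE of 0.25 and an adjusted p of 1 without the date. Leaving out the second date gave 0.46 (adjusted p = 0.0559).

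The 3 Krüppel-like factors bind the same CACCC-type sites and were all low in reads next to Pou5f1. Klf4, best known as a reprogramming factor and a LIF target, lies on chromosome 4 (55527143 to 55532466, minus strand, 5 exons). It had normalized counts of 339.6, 241 and 245 in R1 and 439, 374 and 366 in HN. The HN libraries lay above the R1 libraries without overlap (exact permutation p = 0.1, the smallest possible). Unpaired, HN exceeded R1 by a log2 fold change of 0.52 (SE 0.20, unadjusted p = 0.0235 and adjusted p = 0.713 by limma). Klf4 rose in the same-date comparison (SE 0.11, 95% interval 0.31 to 0.74, adjusted p = 0.000896). Without the second date the value was 0.47 (adjusted p = 0.0851).

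Klf5, which acts with Klf2 and Klf4 and is also required in the trophectoderm, lies on chromosome 14 (99298691 to 99315036, plus strand). R1 replicates 1, 2 and 3 had normalized counts of 153, 174 and 122.7, and HN replicates had 224, 259 and 149. HN of the third date fell among the R1 values, and the other HN libraries stood above them. Klf5 had a log2 fold change of 0.47 (SE 0.25, adjusted p = 0.969) unpaired, and rose with dates matched (SE 0.13, 95% interval 0.21 to 0.72, limma adjusted p = 0.0126). DESeq2 on the recovered reads with the date gave an adjusted p of 0.142. Leaving out the first date gave 0.43 (adjusted p = 0.0539), and leaving out the second gave 0.41 (adjusted p = 0.306).

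Klf2, a target of Pou5f1 and the factor of the trio that MEK inhibition stabilizes as a protein, lies on chromosome 8 (72319033 to 72321656, plus strand). It had the fewest reads of the 10 genes, between 73 and 241 per library. Its normalized counts were 108, 151 and 98.4 in R1 and 172, 171 and 105 in HN replicates 1, 2 and 3. The first date gave most of the difference (1.59 times), and the others gave 1.13 and 1.07 times. The log2 fold change of 0.31 did not pass in either comparison (SE 0.26, adjusted p = 1 unpaired; SE 0.14, 95% interval 0.02 to 0.60, adjusted p = 0.184 with dates matched, by limma). Counting error alone reached 11.7% in the library with the fewest Klf2 reads.

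Tbx3, a T-box factor downstream of PI3K signalling that sustains Nanog, lies on chromosome 5 (119670669 to 119684724, plus strand, 7 exons). It had normalized counts of 387, 329.9 and 317 in R1 and 577, 499.7 and 384 in HN replicates 1, 2 and 3. HN of the third date was just below R1 of the first, and the other 2 HN libraries stood above every R1 library. The log2 fold change was 0.48 (SE 0.20, unadjusted p = 0.0355 and adjusted p = 0.774 by limma) unpaired. Tbx3 rose with dates matched (SE 0.10, 95% interval 0.27 to 0.69, adjusted p = 0.00161). Leaving out the second date gave 0.43 (adjusted p = 0.133).

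Tfcp2l1, a CP2-family factor that carries LIF and Wnt signals into the network, lies on chromosome 1 (118627945 to 118685168, plus strand, 15 exons). It had the highest normalized counts of the 10 genes, with 3744, 3623 and 3091 in R1 and 6216, 5235 and 4162 in HN replicates 1, 2 and 3. Its exons are also the longest of the 10 (9438 bases), and per kilobase it had rank 4 in R1 and rank 3 in HN. The HN libraries stood above all R1 libraries, and the difference was 1.66, 1.45 and 1.35 times on dates 1, 2 and 3. The means were 3486 ± 348 in R1 and 5205 ± 1027 in HN (SD, n = 3), a log2 fold change of 0.56 (SE 0.21, unadjusted p = 0.019 and adjusted p = 0.655 by limma) without the date. Tfcp2l1 rose with dates matched (SE 0.09, 95% interval 0.39 to 0.74, adjusted p = 1.64e-05). It was the only gene of the 10 that passed without the second date (0.58, adjusted p = 0.0101), and it passed in 9 of the 10 same-date fits. The exception was limma without the variance trend (adjusted p = 0.235).

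**Figure D2:**
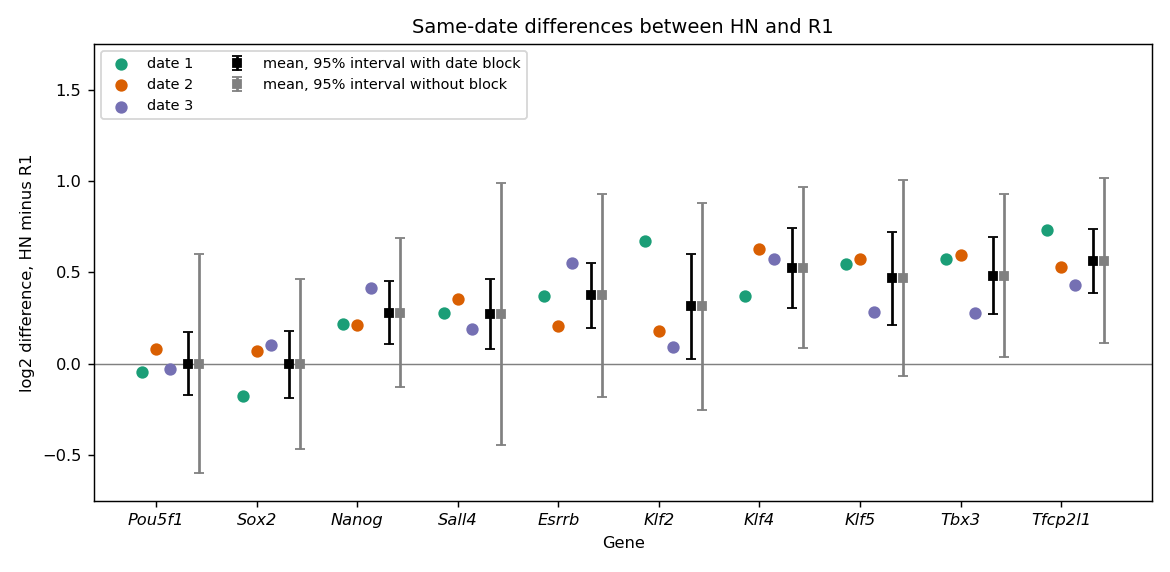
Difference of log2 normalized count between HN and R1 mESCs (y axis) for each factor, with 1 coloured point per collection date and the mean with its 95% interval from limma, in black with the date as a block and in grey without. The points of Pou5f1 and Sox2 lie on both sides of 0, all points of the other 8 genes lie above it, and the black intervals are shorter than the grey ones for every gene.

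Counted over the 10 genes, the unpaired comparison passed 0 (0.245% of all genes tested passed), and 3 had an unadjusted p under 0.05, namely Klf4, Tbx3 and Tfcp2l1, all higher in HN (of all genes 3.15% were higher at that level and 5.91% passed in either direction). In the same-date comparison 6 were higher, against 5.46% of all genes, and 0 were lower, against 4.02% (9.48% in either direction). Among the genes with a mean of at least 50 normalized counts, as all 10 have, 8.77% were higher. HN was above R1 on all 3 dates for 8 of the 10 genes, against 20.3% of all genes. The libraries did not overlap for 3 genes, all higher in HN, against 5.23% of all genes, and 0 were lower without overlap, against 5.54%. An absolute log2 fold change above 1 was reached by 0 of the 10 genes, whereas 0.245% of all genes passed the test with such a change unpaired and 1.95% with dates matched. The median log2 fold change was 0.14 for the 4 core factors and 0.48 for the 6 outer factors, beside a median of -0.01 for all genes tested.

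The count of 6 depended on the date block and on single dates. The same-date comparison passed 5 genes without the first date, 1 without the second and 6 without the third, when fitted to the libraries of the other dates. Over all 14276 genes, 1129, 486 and 1723 passed in these fits, against 1354 with every date. It passed 7 of the 10 genes in edgeR (1605 of all genes), 5 in DESeq2 (513 of all genes) and 0 in limma without the variance trend (0 of all genes). In each fit without the block, 0 of the 10 genes passed.

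In bulk RNA, fewer cells that express a factor and less of its mRNA per cell cannot be told apart. Markers of other cell types that a stem cell culture could hold were also summed. Beside the markers that passed, 9.48% of all genes tested passed with dates matched in either direction. The share of tested markers was 12.5% for primitive endoderm and for neural markers, near that value. In the other lists, each with few tested genes, it ran from 0% to 33.3%. The sum over 8 markers of primitive endoderm ranged from 291 to 419 normalized counts in R1 and from 556 to 714 in HN, where Lama1 (laminin alpha 1) was the 1 of 8 that rose with dates matched. Without Lama1, which held most of these counts, the sums overlapped, from 41.4 to 175 in R1 and from 41.8 to 151 in HN. The sum over 8 mesoderm markers ranged from 89.4 to 177 in R1 and from 191 to 271 in HN (2 of the 6 tested rose, T and Eomes), and without Eomes from 25.5 to 129 and from 76.7 to 135. For 8 fibroblast markers it ranged from 1371 to 1776 and from 2027 to 2665 (of 6 tested, Fn1 rose and Thy1 fell), with Col6a1 at 3 reads or fewer. Nearly all of these counts were those of Fn1 (fibronectin), whose means were 1543 in R1 and 2248 in HN, and without it the sums overlapped, from 44.4 to 122.7 and from 26.2 to 90.98. Sums of 7 trophoblast, 8 neural, 8 formative-state and 8 two-cell-like markers overlapped between the lines. With dates matched, the neural marker Tubb3 fell by 0.76, the trophoblast marker Tfap2c fell by 0.74 and, of the formative-state markers, Otx2 fell by 1.52 and Lef1 rose by 1.30 on the log2 scale (limma). Otx2 (means of 27.0 in R1 and 9.21 in HN) and Lef1 (16.9 and 38.0) were low in normalized counts. In all, 0 of all these markers were without reads in every library. The part of other cell types in the values of the 10 factors was not tested.

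The 10 genes also differed between dates. The effect of the collection date passed for 9 of 10 genes, all except Nanog (adjusted p = 0.0555), against 46.0% of all genes tested (limma). Libraries of the third date were below the mean of the earlier dates in both lines for 10 of 10 genes, against 43.8% of all genes. That share covers genes of every level, whereas all 10 genes had a mean of at least 50 normalized counts. It was not computed for genes of such levels alone. Pou5f1 stood 0.76 lower on the log2 scale on the third date than on the first (BH adjusted p for date 2.55e-07), which is more than the line difference of any of the 10 genes. Sall4 followed another course, higher by 0.77 on the second date than on the first and lower by 0.39 on the third (adjusted p = 1.78e-08). Without the variance trend 0 of the 10 genes passed for date.

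The dates separated the genes by shape. Pou5f1 held its level on the first dates, at 3460 and 3405 in R1 and at 3347 and 3597 in HN, before the third. Sox2, Nanog, Klf4, Tbx3 and Tfcp2l1 were highest on the first date in both lines. Sall4, Esrrb and Klf5 were highest on the second in both lines. Depth also differed between dates, with 3604420 and 3866717 reads in R1 and HN on the second date. Libraries of the third date had reads on the most genes of their line, 20675 in R1 and 20542 in HN. R1 of that date nevertheless had the fewest reads of all libraries, 1640391. The part of these library differences in the courses was not tested.

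**Figure D3:**
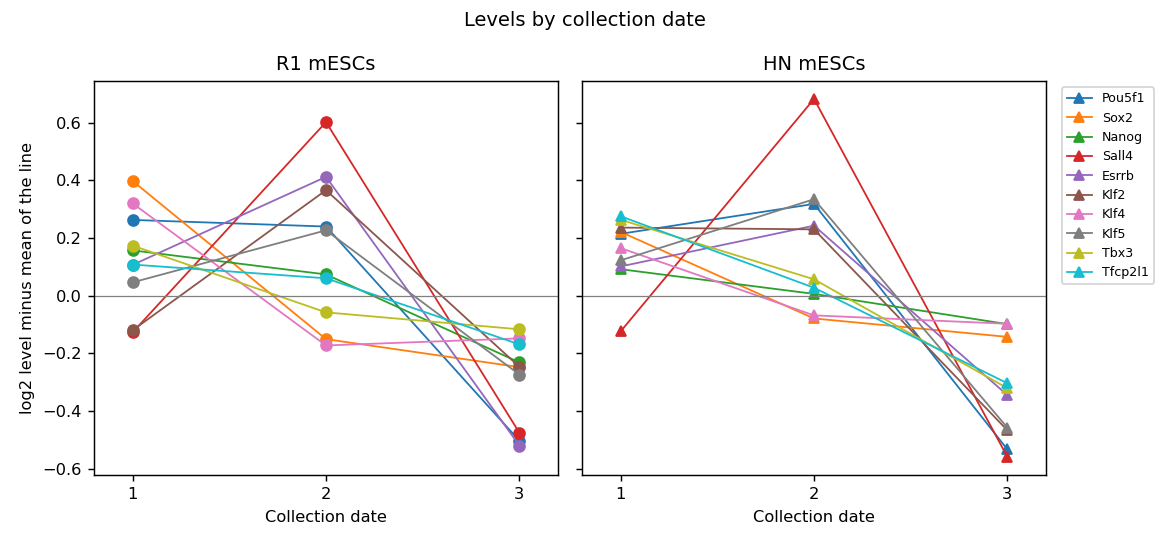
Log2 level of each factor minus its mean in the line (y axis) on collection dates 1, 2 and 3 (x axis), for R1 mESCs on the left and HN mESCs on the right. Sall4 peaks on the second date in both lines, and all 10 genes lie below their mean on the third date.

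The order of the factors was set by levels per kilobase of exon, since counts of genes of different length cannot be compared. In R1 mESCs Pou5f1 came first with 1320 ± 359 normalized counts per kilobase, followed by Nanog with 982 ± 134, Sox2 with 526 ± 134, Tfcp2l1 with 369 ± 36.8, Esrrb with 290.3 ± 89.4, Sall4 with 105 ± 41.5, Klf4 with 90.3 ± 18.3, Klf2 with 64.4 ± 15.2, Tbx3 with 52.0 ± 5.68 and Klf5 with 28.8 ± 4.95 (SD, n = 3). Neighbours overlapped between libraries for Pou5f1 and Nanog, Tfcp2l1 and Esrrb, Sall4 and Klf4, Klf4 and Klf2, and Klf2 and Tbx3. In HN mESCs the order was the same apart from a pair of exchanges. Tfcp2l1 stood at 551 ± 109 ahead of Sox2 at 518 ± 72.0, and Klf4 at 128.9 ± 13.2 beside Sall4 at 128 ± 57.8, and both pairs overlapped. With the longest transcript as the length, the R1 level of Pou5f1 was 2178 and that of Klf5 was 44.7 normalized counts per kilobase. Pou5f1 then lay above Nanog without overlap in both lines, Tbx3 came before Klf2 in both, and Esrrb came before Tfcp2l1 in R1. In HN Tfcp2l1 remained ahead of Sox2 (518), which also stood just behind Esrrb (519). Sall4 (140) came before Klf4 (129.7) in HN with this length, so their exchange between the lines was not seen.

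Within the summed normalized counts of the 10 genes, Tfcp2l1 took 27.2% ± 2.59 in R1 and 32.3% ± 2.29 in HN (SD, n = 3), and Pou5f1 took 22.6% ± 2.38 and 18.3% ± 2.51. The shares are not corrected for length, so they can be compared between lines but not between genes. The shares of each gene overlapped between the lines, and exact permutation tests that ignore the dates gave p-values from 0.2 to 0.9 with a smallest possible value of 0.1. Within dates, the share of Tfcp2l1 was higher in HN by 8.44, 4.58 and 2.39 percentage points on dates 1, 2 and 3. The share of Pou5f1 differed by -5.51, -3.27 and -4.27 percentage points and that of Sox2 by -2.88, -0.96 and -1.22, each lower in HN on all 3 dates. Since the shares of a library add up to a fixed whole, these lower shares follow from the rises of other genes and are not separate results. With 3 pairs an exact test cannot go below 0.25. Relative to Pou5f1 in the same library, Esrrb was higher in HN by 0.37 on the log2 scale (0.13 to 0.58 on single dates) and Klf5 by 0.47 (0.31 to 0.59), both without overlap between the lines (exact permutation p = 0.1 each). The ratio of Tfcp2l1 to Pou5f1 was higher by 0.56 (0.45 to 0.78 on single dates), but R1 of the third date overlapped with HN (exact permutation p = 0.2). As the mean of Pou5f1 hardly differed between the lines, these mean differences repeat the log2 fold changes of the genes themselves. Together the 10 genes held between 0.463% and 0.556% of the reads of R1 libraries and between 0.544% and 0.712% of those of HN libraries.

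Genes with the most similar course over the 6 libraries were found by the root mean square difference of centred log2 levels, over 7643 genes. Among the 10 factors Tbx3 and Tfcp2l1 were the closest pair, at 0.07, and Sox2 and Sall4 the farthest, at 0.56. Tfcp2l1 was second in likeness to Tbx3 among all genes compared, after Itgav (0.06). The gene most like Pou5f1 was Slc44a2 (0.03), the ones most like Sox2 were the ribosomal protein genes Rpl12 and Rpl17 (0.04 each), and the one most like Esrrb was Nsd1 (0.04). With 6 libraries these are descriptions of shared date and line patterns.

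Exons of 4 of the 10 genes overlap those of another gene. In GENCODE M21, exons on the opposite strand overlap Pou5f1 (Gm19553, 317 bases), Sall4 (Gm14261, 526 bases) and Tbx3 (Tbx3os1, 115 bases), and the small nuclear RNA gene Gm23497 shares 130 bases with Tfcp2l1 exons on the same strand. Without strand in the counting, which is not stated, such reads cannot be assigned to one gene. Of the 50-base stretches of the transcripts, 10.1% for Pou5f1, 4.61% for Nanog and 7.64% for Sall4 also occur in another gene, and 1.01% or fewer for each of the other 7.

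The rest of the network was described with 4 lists, beside which 9.48% of all genes tested passed with dates matched and 0.245% unpaired. Of 21 other transcription factors of the network, 5 rose and 3 fell with dates matched, and 0 passed unpaired, with a median log2 fold change of 0.12. The largest rise was that of Nr0b1 (Dax1, a nuclear receptor that binds Pou5f1), with normalized counts of 205, 303 and 132 in R1 and 605, 617 and 318 in HN replicates 1, 2 and 3. All HN libraries lay above the R1 libraries, a log2 fold change of 1.28 (SE 0.11, limma adjusted p = 2.03e-10 with dates matched and 0.275 unpaired). Sp5 (1.07), a Wnt target, Prdm14 (0.69), which silences primed-state genes, Foxd3 (0.58) and Gbx2 (0.55), a LIF target, also rose with dates matched. Sp5 was low, at 7.45, 17.8 and 39.1 normalized counts in R1 and 40.2, 36.9 and 36.8 in HN. Its libraries overlapped between the lines, as did those of Foxd3 and Gbx2. Zfp42 (Rex1, the usual reporter gene of naive cells) fell, from 2009, 2381 and 1886 in R1 to 1061, 1295 and 1272 in HN, without overlap between the lines (log2 fold change -0.79, SE 0.09, adjusted p = 6.37e-08 with dates matched and 0.195 unpaired). Utf1, a chromatin protein of stem cells, fell by 1.06 and Otx2, a factor of the formative state, fell by 1.52 on the log2 scale in the same comparison. Otx2 was low, at 27.7, 15.5 and 37.7 normalized counts in R1 and 12.2, 3.54 and 11.9 in HN.

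Of 18 genes known as targets of the core factors, 6 rose and 6 fell with dates matched, with a median of -0.10. Those that rose were Spp1 (0.95), Fgf4 (0.61), Gdf3 (0.61), Jam2 (0.43), Nodal (0.41) and Dppa5a (0.27), among them Fgf4, the textbook target of an Oct-Sox element. Those that fell were Trh (-1.71), Eras (-1.54), Fbxo15 (-0.88), Tcl1 (-0.78), Upp1 (-0.74) and Dnmt3l (-0.71), among them Fbxo15, another Oct-Sox target. Trh, which encodes thyrotropin-releasing hormone, had 1169, 1036 and 649.7 normalized counts in R1 and 296, 276 and 272 in HN replicates 1, 2 and 3. Every HN library lay far below every R1 library, and Trh passed in both comparisons (limma adjusted p = 0.00739 unpaired and 1.34e-13 with dates matched). Eras, a Ras protein of stem cells, was the other that passed unpaired (adjusted p = 0.0264). From these same data, the paper lists Trh and Eras among reduced genes, and Nr0b1, Prdm14 and Spp1 among raised ones.

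Of 17 genes of the LIF, Wnt and FGF inputs, Axin2 (a negative feedback target of Wnt signalling) rose by 0.65 and Spry4 (a feedback inhibitor of FGF signalling) fell by 0.81 on the log2 scale with dates matched, and 0 passed unpaired. These 2 genes are 11.8% of the list, near the 9.48% of all genes. Axin2 had normalized counts of 57.5, 138 and 109 in R1 and 135, 194 and 130.0 in HN replicates 1, 2 and 3, and the lines overlapped. Spry4 varied more between dates than between lines, at 245, 585 and 146 in R1 and 157, 426 and 57.4 in HN. The median of the list was 0.02. Of 19 chromatin and coactivator proteins that bind Pou5f1 or Nanog, 4 rose with dates matched (Ncoa3 by 0.42, Smarcc1 by 0.41, Hcfc1 by 0.38 and Arid1a by 0.37), 0 fell and 0 passed unpaired, with a median of 0.14. Among these Ncoa3 is a coactivator of Esrrb.

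**Figure D4:**
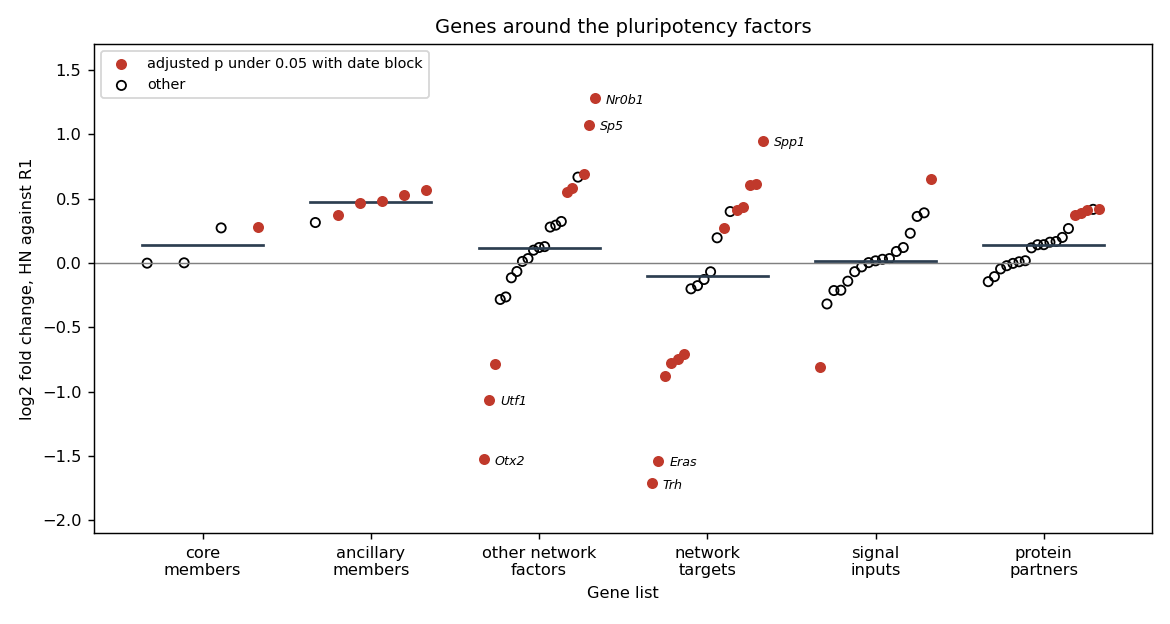
Log2 fold change between HN and R1 mESCs (y axis) of each gene, by list (x axis), with filled points for an adjusted p under 0.05 in the same-date comparison and a bar at the median of the list. The ancillary members (Esrrb, Klf2, Klf4, Klf5, Tbx3 and Tfcp2l1) lie between 0.31 and 0.56, whereas network factors and targets spread from below -1.5 to above 0.9.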

How the data were processed

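RNA-seq libraries of R1 and HN mESCs (n = 3 each) were made by the authors with the TruSeq RNA kit v2 and sequenced as paired ends. Per the labels and methods, the authors used bcl2fastq for demultiplexing, STAR for alignment (build mm10/GRCm38), Picard for removal of PCR duplicates, HTSeq for counts of reads on exons, and DESeq2 for size factors, by which the counts were divided. Versions and gene annotation are not given in the sources used here. The deposited values are thus a normalized signal per gene, and 0 per-sample columns were unused. In each library 100% of values were whole multiples of 1 read (tolerance 0.001), so that reads were recovered for depth and count tests. On these reads the unpaired edgeR 4.0.16 quasi-likelihood test called 34 genes and DESeq2 1.42.0 called 111. No molecular identifiers were used, so reads may not be independent molecules and counting errors cover counting only. In 27 rows a date or a repeated name stands in place of a gene symbol, and these are named nowhere.

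Log2(value + 1) of the 14276 genes with a mean of at least 5 was tested with limma 3.58.1 (variance trend, R 4.3.3), without a block since the study's methods name none, and with the replicate number as a block. The pairing comes from the collection dates in the labels. Deviations from the line means correlated at 0.25, 0.69 and 0.77 between same-date libraries of the lines. Between libraries of different dates the correlations ran from -0.71 to 0.34. The highest of these, R1 of the first date with HN of the second, exceeded the same-date value of the first date. Alternatives were the count tests (each also with the block), a pseudocount of 0.1 or 10, either no filter or a minimum mean of 50, TMM, median and quantile scaling, no variance trend, and leaving out each library. The 10 genes and all lists were chosen with earlier results of these data known. By rule, the genes named were the 10 factors, Htt, list genes that passed the test, markers, paralogs above the lowest factor per kilobase, and the 2 genes of mean at least 50 with the course most like that of each factor, of which a selection is printed. Gene positions and exon lengths come from GENCODE M21 (GRCm38), and promoter windows from RefSeq (GRCm38.p6). Python 3.11.15 with SciPy 1.17.1 was used for exact permutation tests (two-sided).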

Additional observations from a re-analysis of the deposited data

How the results depend on the processing

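The unpaired comparison passed 0 of the 10 factors, as did the replicate block without the variance trend. Other alternatives with the replicate block passed more: the block alone 6, with edgeR 7, with DESeq2 5, with TMM scaling 5, with median centring 7, with quantile normalization 6, and with 1 date left out from 1 to 6. Fits that combined the block with another scaling, with no variance trend or with a date left out were chosen after seeing the data. Over all 14276 genes, 35 passed unpaired, 0 without the variance trend (with or without the block), 111 in DESeq2, from 9 to 56 without 1 library, 1354 with the block, 1605 with edgeR and the block, 513 with DESeq2 and the block, 1258 with the block and TMM, 1570 with the block and median centring, 1365 with the block and quantile normalization, and 1129, 486 and 1723 with the block and without the first, the second or the third date. For date, 9 of the 10 factors passed and 0 without the variance trend. With the replicate block the network factors that passed went from 0 to 8, targets from 2 to 12, inputs from 0 to 2 and protein partners from 0 to 4. The log2 fold change turned sign for Pou5f1 with DESeq2 and the block (-0.0031), TMM (-0.0067, with and without the block), quantile normalization (-0.14, both) and without 1 library (-0.25 to 0.27) or without the second date (-0.039). It turned for Sox2 with edgeR and the block (0.00097), median centring (0.012, both), without 1 library (-0.13 to 0.20) and without the first date (0.086), and for Sall4 without 1 library (-0.069 to 0.57). The other 7 genes kept their sign in all 27 alternatives, with adjusted p-values that depended on the block. Depth limits Klf2 and Klf5 most, with counting errors of up to 11.7% and 10.5%.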

Other observations

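The relatives of the 10 factors within their families were described as well, from lists of paralogs. With dates matched, where 9.48% of all genes tested passed, 0 of 14 other Klf genes passed the test, as did 0 of 2 Esrr genes (Esrra and Esrrg) and 0 of 5 relatives of Tfcp2l1. Without the date 0 of the tested genes in any of these families passed. Of 11 other Sox genes, Sox15 (an early embryonic Sox factor that can pair with Pou5f1) was the 1 that rose. Its normalized counts were 154, 101 and 97.0 in R1 and 215, 159 and 142 in HN replicates 1, 2 and 3, a log2 fold change of 0.56 (SE 0.13, limma adjusted p = 0.00434 with dates matched and 0.827 unpaired). Of 9 Pou genes tested, Pou6f1 rose by 1.20 from a low level (14.7 ± 4.94 to 34.3 ± 6.35 normalized counts, SD, n = 3). Sall1, a relative of Sall4, fell by 0.65 on the log2 scale, from 183 ± 41.8 to 115 ± 14.3 normalized counts. Of 10 Tbx genes tested, T (Brachyury) rose by 1.21 and Eomes by 0.96 with dates matched.

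Per kilobase of exon over all 6 libraries, most of these relatives were below Klf5, the lowest of the 10 factors at 34.7 normalized counts per kilobase. Sox15 stood at 168, and 3 of 14 Klf genes were above Klf5, the highest of which was Klf9 at 129.9. Ubp1, a relative of Tfcp2l1, stood at 73.9. Of the other Pou, Sall, Esrr and Tbx genes, 0 were above Klf5.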
